A study of Mus musculus with 6 samples.

Results

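The endoplasmic reticulum (ER) is where secreted and membrane proteins are folded, and 36 genes of its chaperones, folding enzymes, degradation machinery and stress response were followed here in liver macrophage preparations with and without serotonin (5-HT). The genes were chosen by symbol, and all 36 were found among the 56691 genes of the deposited table. Ddit3 appears there under 2 identifiers, of which the second had a count of 0 in every library and was not used. All 36 passed the filter on low counts and are among the 16641 genes tested. They were divided by textbook role into 11 chaperones and co-chaperones, 8 folding enzymes and translocation genes, 4 stress sensors including Xbp1, 7 degradation factors and 6 genes of the ATF4 branch.

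The libraries were made from cells labelled as Kupffer cells, macrophages that reside in liver, and both groups have the genotype Vil1Cre-Myd88fl/fl. This combines a Cre driven by the Vil1 promoter, active in intestinal epithelium, with floxed Myd88, a signalling adaptor gene of Toll-like receptors. Each group, untreated or 5-HT treated, has 3 libraries, and 5-HT is the one difference that the sample titles name. The library names and column headers call the untreated libraries KO and the treated ones 5-HT, although both groups carry the same genotype label. The labels give no dose, route or duration and do not say whether libraries come from separate animals, so p-values measure the spread between libraries, which may be technical.

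Folding demand in the ER is sensed by Ire1 (gene Ern1), Perk (Eif2ak3) and Atf6. Ire1 splices the Xbp1 message and Atf6 is cut to release a transcription factor, and both routes raise the genes of chaperones and of ER-associated degradation, which passes misfolded proteins to the proteasome. Perk phosphorylates the initiation factor eIF2, which slows translation while favouring Atf4 and its targets; other kinases that answer amino acid shortage, haem shortage or viral RNA feed the same branch. Antibody-secreting plasma cells hold very large amounts of ER chaperone RNA. Values below are levels in FPKM (read counts scaled to exonic length and to the library total) or differences on the log2 scale, 5-HT treated minus untreated.

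The total count of a library ran from 15390956 to 19050039. Kupffer cell markers were high in every library: the summed FPKM of 10 markers was 744 to 1073 in untreated and 1231 to 1449 in treated libraries, with Cd5l and Clec4f the most abundant. Endothelial markers were also abundant, with a summed FPKM over 8 genes of 2589 to 2634 in untreated and 2424 to 3256 in treated libraries, so RNA of more than one cell type is present. Hepatocyte markers, 8 genes of which 0 passed, had a summed FPKM of 813 to 1185 untreated. In treated replicates 1, 2 and 3 that sum was 1907, 1695 and 635. The endothelial genes moved in different directions: Lyve1 rose from 248 to 268 FPKM untreated to 794 to 1022 treated, Kdr and Tek fell, and Stab2 and Clec4g were lower in every treated library without passing. In such bulk samples fewer cells of a type and less RNA per cell cannot be told apart, and which cells gave the reads of the ER genes was not tested. 5-HT treated replicate 2 stood apart from the other treated libraries along the second principal component (23.03% of the variance), and results that rest on it are given with and without it.

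Short promoter stretches are shown first, because most of the chaperones that rose, and also the gene that fell, carry ER stress elements. The elements searched, on both strands of the window from 250 bases before to 50 bases after each RefSeq start, were the ER stress element ERSE (CCAAT, then 9 bases of any kind, then CCACG), ERSE-II (ATTGG, then 1 base of any kind, then CCACG), the core of the Xbp1 element (TGACGTGG) and the ATF4 element CARE (TGATGNAA). The motifs overlap in part: ATTGG is CCAAT read on the other strand, and the Xbp1 core ends in CGTGG, which is CCACG read on the other strand. In the lines below, capitals mark ERSE in the genes from Hspa5 to Derl3, CARE on the other strand and then ERSE-II in Herpud1, and CARE in Asns and Chac1. The motif is also on the other strand in Calr, Creld2, Derl3, Chac1 and the copy of Hsp90b1 nearer the start. All lines are RefSeq promoter sequence of GRCm38.p6, written 5′ to 3′ on the gene's own strand and ending upstream of the start.
Hspa5, chr2:34771980-34772059, plus strand: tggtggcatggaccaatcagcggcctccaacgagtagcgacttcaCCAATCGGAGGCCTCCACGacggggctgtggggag
Hsp90b1, chr10:86705530-86705659, minus strand: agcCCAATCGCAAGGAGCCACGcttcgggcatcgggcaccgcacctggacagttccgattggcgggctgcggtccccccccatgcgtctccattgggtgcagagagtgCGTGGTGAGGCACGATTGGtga
Calr, chr8:84847057-84847111, minus strand: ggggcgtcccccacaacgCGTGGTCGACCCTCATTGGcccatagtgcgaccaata
Pdia6, chr12:17266474-17266523, plus strand: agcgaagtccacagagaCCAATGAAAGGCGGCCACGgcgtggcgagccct
Creld2, chr15:88819501-88819555, plus strand: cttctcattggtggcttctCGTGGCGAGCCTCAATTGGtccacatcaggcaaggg
Syvn1, chr19:6046511-6046560, plus strand: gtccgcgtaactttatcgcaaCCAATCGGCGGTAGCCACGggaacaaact
Derl3, chr10:75893223-75893277, plus strand: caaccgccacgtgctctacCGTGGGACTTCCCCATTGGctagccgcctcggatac
Herpud1, chr8:94386309-94386398, plus strand: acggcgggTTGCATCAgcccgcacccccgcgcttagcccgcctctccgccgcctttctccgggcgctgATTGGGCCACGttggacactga
Asns, chr6:7693215-7693269, minus strand: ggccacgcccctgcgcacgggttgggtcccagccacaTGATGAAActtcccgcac
Chac1, chr2:119351027-119351076, plus strand: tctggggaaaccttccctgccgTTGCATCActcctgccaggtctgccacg

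Promoter windows were at hand for 32 of the 36 genes, 33 windows in all. An exact ERSE was present in 10 of the 32 (31.3%), against 0.119% of all 32851 mouse windows of the same length, and ERSE-II in 2 (Dnajb11 and Herpud1), against 0.0365%. Of the 10, Hspa5, Hsp90b1, Calr, Canx, Creld2 and Pdia6 rose with 5-HT, while Dnajc3, Ero1b, Syvn1 and Derl3 did not pass the test. Hsp90b1 alone had 2 copies. CARE was present in 4 genes (Herpud1, Trib3, Asns and Chac1), against 3.97% of all windows. The Xbp1 core was in 0 of the 32 and in 0.676% of all windows, which says only that these letters are missing from these windows. By role, 7 of 9 chaperones and 3 of 6 degradation factors with a window held ERSE or ERSE-II, and 0 of 6 genes of the ATF4 branch did. Of the called chaperones, Hyou1 and Manf had no window, and Sdf2l1 had neither ERSE nor ERSE-II. The 36 genes were chosen for ER and stress roles, so their shares beside those of all windows say nothing about 5-HT. These matches are descriptions of sequence, and binding was not measured.

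Of the 36 genes, 13 rose, 1 fell and 22 did not pass at an edgeR adjusted p under 0.05. Over all genes tested, 4.55% rose and 3.19% fell. DESeq2 called 18 of the 36 higher and 2 lower (7.46% and 6.12% of all genes), and the fit with a replicate block 13 and 1 (3.26% and 2.13%). The number depended on single libraries: leaving out untreated replicate 1 gave 7 higher and 1 lower (1.28% and 0.652% of all genes), and leaving out untreated replicate 3 gave 8 and 1 (1.29% and 0.68%). The median log2 change was 0.76 for the chaperones, 0.20 for folding enzymes and translocation genes, 0.50 for the sensors with Xbp1, 0.29 for the degradation factors and 0.11 for the ATF4 branch, against -0.02 over all genes tested. Groups did not overlap, with treated libraries higher, for 26 of the 36 genes (15.4% of all genes tested), and with treated libraries lower for 4 (14.3%). By role, 9 of 11 chaperones rose, against 2 of 8 folding and translocation genes, 2 of 4 sensors, 0 of 7 degradation factors and 0 of 6 ATF4 branch genes. The difference between these shares was not tested. At an unadjusted p under 0.05, 5 degradation factors were higher and 1 lower, and 0 ATF4 branch genes were higher and 2 lower. At least 3983 of the 16641 genes tested were under this cut, in either direction. DESeq2 called 2 degradation factors and 0 ATF4 branch genes higher, and 1 of each role lower.

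Marker RNA of some cell types also differed between the groups, in both directions. Of 8 tested neutrophil markers 5 rose (4.55% of all genes did), with a median log2 change of 1.67 over the 8. Ngp and Ltf had negative log2 values without passing (-0.81 and -0.33), and Camp, which was not tested, was lower in every treated library. Of 10 Kupffer cell markers 2 rose (Adgre1 and Marco), with a median of 0.56, and 7 had treated libraries above all untreated ones (15.4% of all genes). All 8 stellate cell markers had negative log2 values, with a median of -1.07, and 1 of them (Reln) fell (3.19% of all genes did). The summed FPKM of the 8 was 109.7 to 159 untreated and 43.8 to 112 treated. The part of these shifts in the values of the 36 genes was not tested.

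**Figure D1:**
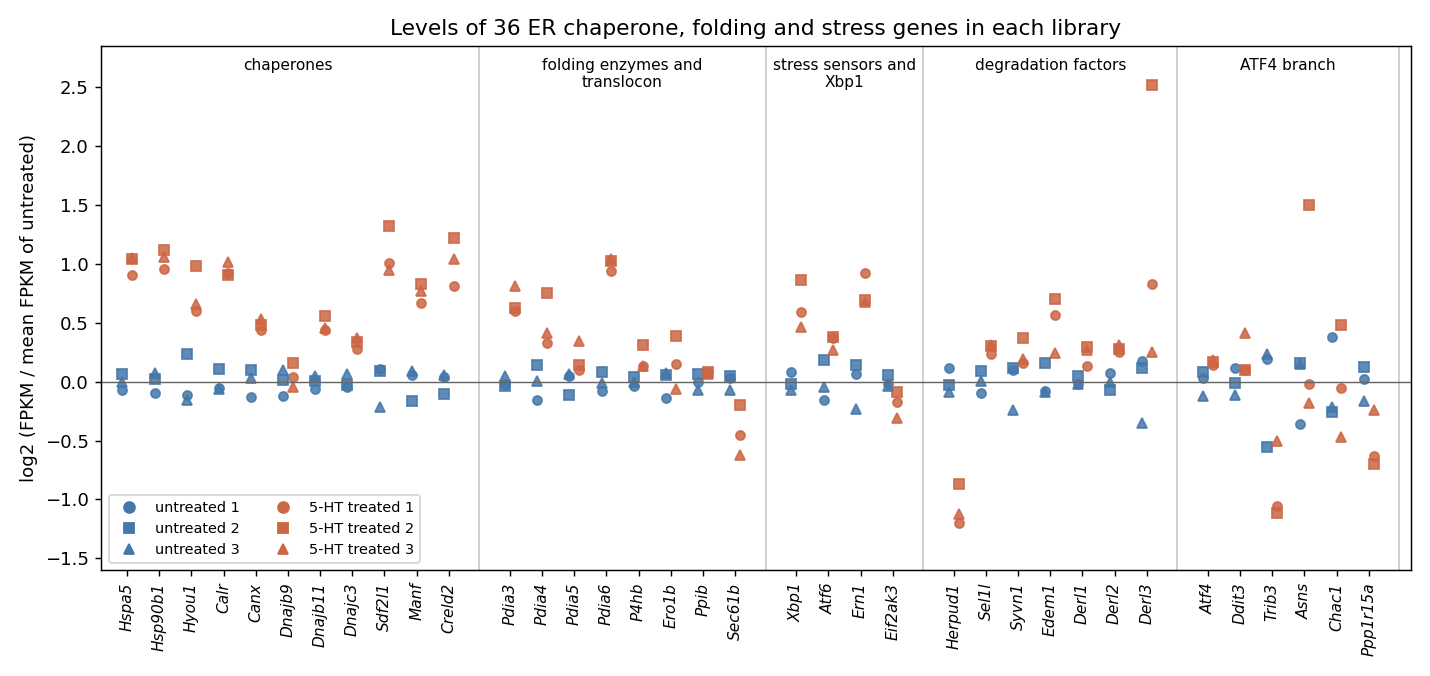
Level of each of the 36 genes in each library, as the log2 of its FPKM over the mean of the untreated libraries, grouped by role; blue points are the 3 untreated and orange the 3 5-HT treated libraries, with one marker shape per replicate number. Treated libraries lie above all untreated ones for 10 of 11 chaperones and below them for Herpud1, Sec61b, Eif2ak3 and Ppp1r15a, while Derl3 and Asns are raised far above the rest in treated replicate 2.

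Of the 11 chaperones and co-chaperones 9 rose. Hspa5 encodes BiP, the main Hsp70 of the ER, which also keeps the sensors inactive. Without treatment its level was 196, 216 and 206 FPKM (replicates 1, 2 and 3), and with 5-HT it was 385, 424 and 425 FPKM. The lowest treated library was well above the highest untreated one, and the gene rose 2.01-fold (log2 1.01, SE 0.10, edgeR adjusted p = 0.00245). Hspa5 (ENSMUSG00000026864) lies on chromosome 2 from 34771970 to 34777547, plus strand, in GRCm38. Hsp90b1, the gene of the Hsp90 of the ER (Grp94), had 167, 182 and 188 FPKM untreated and 348, 389 and 373 treated (log2 1.05, SE 0.10, edgeR adjusted p = 0.00236). It lies on chromosome 10 from 86690209 to 86705509, minus strand, and 10.3% of its exonic bases are shared with the opposite-strand pseudogene 1810014B01Rik, so part of its reads could belong there. Calr encodes calreticulin, a calcium-binding chaperone of glycoproteins. Its FPKM went from 187, 210.04 and 186 to 368, 365 and 393 (log2 0.96, SE 0.10, edgeR adjusted p = 0.00251). For these 3 abundant genes the treated libraries lay within a narrow band and far from the untreated ones.

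Canx, the membrane-bound partner of calreticulin, rose less, from 97.0, 114 and 109 to 144.6, 148 and 154 FPKM (log2 0.49, edgeR adjusted p = 0.029). Less abundant luminal genes rose too. Sdf2l1, a partner of the ER DnaJ proteins, had 12.2, 12.0 and 9.71 FPKM untreated and 22.7, 28.2 and 21.8 treated, the largest log2 change of the called chaperones (log2 1.11, SE 0.15, edgeR adjusted p = 0.00667). Creld2, an ER stress-induced gene with a role in folding, averaged 15.2 ± 0.927 FPKM untreated and 31.2 ± 4.37 treated (SD, n = 3 each; log2 1.04, edgeR adjusted p = 0.00542). Manf, a secreted and ER-resident stress protein, averaged 17.7 ± 1.63 FPKM untreated and 29.8 ± 1.69 treated (log2 0.76, edgeR adjusted p = 0.00799). Hyou1, the nucleotide exchange factor of BiP, averaged 12.8 ± 1.94 FPKM untreated and 21.7 ± 3.22 treated (log2 0.76, edgeR adjusted p = 0.0203).

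The DnaJ co-chaperones, which deliver substrates to BiP, differed in whether they passed: 1 of 3 did. Dnajb11 rose, with 32.9 ± 1.25 FPKM untreated and 46.0 ± 1.99 treated (log2 0.49, edgeR adjusted p = 0.0148). Dnajc3 had groups that did not overlap (53.6 to 57.8 FPKM untreated, 67.0 to 71.2 treated) but did not pass by edgeR (log2 0.33, adjusted p = 0.068); it passed by DESeq2 (adjusted p = 0.00381) and by limma (0.0443 with a pseudocount of 1). Dnajb9, a target of spliced Xbp1 that restrains Ire1, had overlapping groups, with 37.5, 41.2 and 43.7 FPKM untreated and 41.9, 45.5 and 39.5 treated (log2 0.06, SE 0.10, edgeR adjusted p = 0.775). Of the 9 called chaperones, Hspa5, Hsp90b1, Calr, Sdf2l1, Manf and Creld2 kept their calls in all 15 alternative analyses, with adjusted p up to 0.0455. Hyou1, Dnajb11 and Canx lost theirs without untreated replicate 1 (adjusted p = 0.108, 0.0943 and 0.14) and without untreated replicate 3 (0.097, 0.0543 and 0.0982), and Canx also without 5-HT treated replicate 1 (0.0795) or 3 (0.054).

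**Figure D2:**
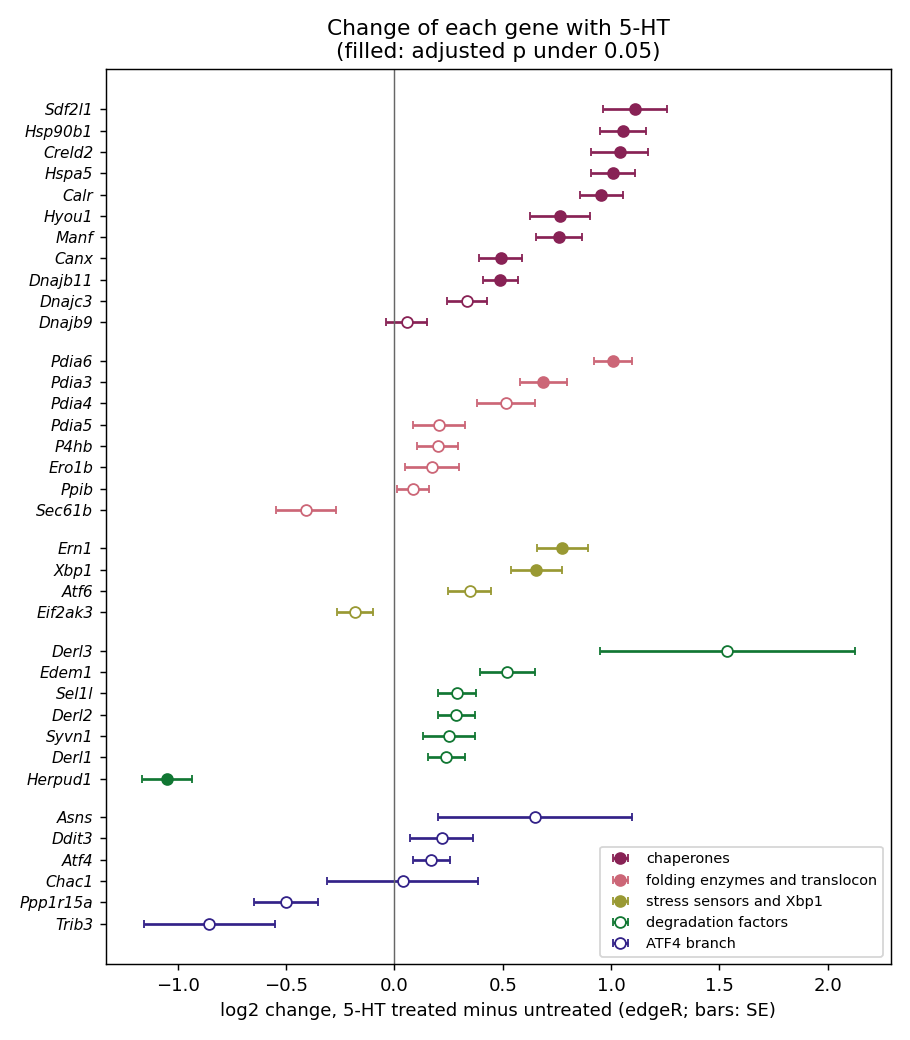
Log2 change of each gene, 5-HT treated minus untreated, from the edgeR fit over all genes, with the standard error as a bar and filled points for an adjusted p under 0.05. Chaperones reach 1.11 (Sdf2l1), Herpud1 stands alone among filled points on the negative side at -1.05, and the widest bars belong to Derl3 and Asns.

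Among the protein disulfide isomerases, which form and rearrange disulfide bonds, 2 of 5 passed the test. Pdia6 had 38.4, 43.0 and 40.2 FPKM untreated and 77.7, 82.2 and 83.3 treated, the smallest edgeR p of all 36 genes (log2 1.01, SE 0.09, adjusted p = 0.00164). Pdia6 lies on chromosome 12 from 17266545 to 17284770, plus strand. Pdia3, which works on glycoproteins with calnexin and calreticulin, rose, with 223 ± 6.69 FPKM untreated and 357 ± 29.1 treated (log2 0.69, edgeR adjusted p = 0.0116). Pdia3 no longer passed without untreated replicate 1 (0.0689) or 3 (0.0568). Pdia4 had treated libraries at 67.3, 90.1 and 71.3 FPKM, all above the untreated 48.0, 59.0 and 53.6, and did not pass (log2 0.52, edgeR adjusted p = 0.0589), although it did by DESeq2 (adjusted p = 0.00656). P4hb, the classical and second most abundant isomerase of the set, was 155 ± 4.25 untreated and 177 ± 12.6 FPKM treated (log2 0.20, SE 0.09, edgeR adjusted p = 0.246). Pdia5 had a log2 value of 0.21 without passing. The ratio of Hspa5 to P4hb within a library was 1.3, 1.35 and 1.33 untreated and 2.27, 2.21 and 2.50 treated (two-sided exact permutation p = 0.1, the smallest that 3 against 3 allows), and it was higher in every treated library than in any untreated one. Both genes were chosen with earlier results of these data known. The separation follows from their levels given here and is no separate evidence.

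Ero1b, an oxidase that recharges the isomerases, and Ppib, the cyclophilin of the ER, differed little: 7.15 ± 0.558 against 8.05 ± 1.27 FPKM and 23.7 ± 1.1 against 24.96 ± 0.174 FPKM (log2 0.17 and 0.08, edgeR adjusted p = 0.457 and 0.551). The value of Ppib is uncertain, because 24.96% of its exonic bases are shared with Snx22 on the opposite strand and the sources do not say whether counting used strand. Sec61b, a small subunit of the translocation channel, had lower values in every treated library (10.49, 12.5 and 9.30 FPKM, against 14.6, 14.8 and 13.6 untreated) without passing (log2 -0.41, SE 0.14, edgeR adjusted p = 0.124).

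Of the sensors, Ern1 rose and Eif2ak3 had lower values. Ern1 had 5.44, 5.76 and 4.43 FPKM untreated and 9.88, 8.42 and 8.31 treated (log2 0.78, SE 0.12, edgeR adjusted p = 0.0103), and its groups were well apart at this low level; the call was lost without untreated replicate 1 (0.0554). Xbp1, the transcription factor gene whose message Ire1 splices, had 47.8, 44.7 and 43.1 FPKM untreated and 67.9, 82.2 and 62.4 treated (log2 0.65, SE 0.12, edgeR adjusted p = 0.0187). Xbp1 did not pass without untreated replicate 1 (adjusted p = 0.079), untreated replicate 3 (0.0946) or 5-HT treated replicate 1 (0.0565). The counts are per gene, so spliced and unspliced Xbp1 messages were not analysed here. Atf6 was 16.2 ± 1.94 untreated and 20.5 ± 0.848 FPKM treated without passing (log2 0.35, edgeR adjusted p = 0.0792), although it passed by DESeq2 (0.0252) and without untreated replicate 2 (0.0497). Eif2ak3 was 14.4 ± 0.514 and 12.6 ± 0.949 FPKM (log2 -0.18, edgeR adjusted p = 0.239).

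The degradation factors divided into 1 gene that fell and 6 with positive log2 values that did not pass. Herpud1 encodes a membrane protein that helps to assemble the Hrd1 ubiquitin ligase complex, and its promoter above holds both ERSE-II and CARE. It had 132, 119 and 114 FPKM untreated and 53.1, 66.7 and 55.8 FPKM treated. The highest treated value lay far below the lowest untreated one, and the gene fell 2.07-fold (log2 -1.05, SE 0.12, edgeR adjusted p = 0.00319). Herpud1 (ENSMUSG00000031770) lies on chromosome 8 from 94386438 to 94395377, plus strand. Its call held in all 15 alternatives, with log2 values from -1.15 to -0.98 and adjusted p up to 0.0243.

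The Hrd1 ligase gene Syvn1 and its adaptor Sel1l had levels of 7.16 ± 0.954 and 25.1 ± 1.60 FPKM untreated and 8.49 ± 0.696 and 30.5 ± 0.854 FPKM treated (log2 0.25 and 0.29, edgeR adjusted p = 0.248 and 0.0922), and Sel1l passed by DESeq2 (0.0214). Edem1, a lectin that selects glycoproteins for degradation, came nearest to passing upward, with 15.5, 18.3 and 15.4 FPKM untreated and 24.2, 26.6 and 19.4 treated (log2 0.52, edgeR adjusted p = 0.0517); it passed by DESeq2 (0.00463), without a filter (0.0247) and without 5-HT treated replicate 3 (0.0224). Derl1 and Derl2, channel proteins of the same complex, had log2 values of 0.24 and 0.29 with groups that did not overlap. Within a library, the ratio of Hspa5 to Herpud1 was 1.49, 1.81 and 1.80 untreated and 7.26, 6.35 and 7.62 treated, and that of Sel1l to Herpud1 was 0.178, 0.224 and 0.219 untreated and 0.556, 0.463 and 0.557 treated (two-sided exact permutation p = 0.1 for each, the smallest possible). Both ratios were higher in every treated library than in any untreated one. Hspa5 and Sel1l were chosen for them with the direction of these genes known. The separation, and with it the p-value, follows from the levels given here and is no separate evidence.

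Of the 6 genes of the ATF4 branch 0 passed by edgeR, 2 had lower values at an unadjusted p under 0.05, and DESeq2 called 1 lower. Over all genes tested, at least 3983 of 16641 were under that unadjusted cut, in either direction. Atf4 itself was 81.1 ± 5.91 FPKM untreated and 90.9 ± 1.21 FPKM treated (log2 0.17, SE 0.09, adjusted p = 0.274). Ddit3, the gene of the pro-apoptotic factor CHOP, was 8.30 ± 0.683 and 9.61 ± 1.23 FPKM (log2 0.22, adjusted p = 0.414). Ppp1r15a encodes Gadd34, the phosphatase subunit that reverses eIF2 phosphorylation. Its FPKM was 173, 186 and 153 untreated and 110.3, 105 and 144 treated, lower in every treated library with replicate 3 close to the untreated range (log2 -0.50, SE 0.15, edgeR adjusted p = 0.0872); it passed as lower by DESeq2 (0.0164) and without 5-HT treated replicate 3 (0.0219). Trib3, a pseudokinase induced by Atf4 and CHOP, was 3.57, 2.12 and 3.66 FPKM untreated and 1.5, 1.44 and 2.2 treated (log2 -0.85, SE 0.30, edgeR adjusted p = 0.135). Chac1, which degrades glutathione, was near 1 FPKM with 24 to 46 counts per library and overlapping groups (log2 0.04, SE 0.35). Asns, the asparagine synthetase gene, had 1.89, 2.71 and 2.69 FPKM untreated and 2.40, 6.87 and 2.14 treated (log2 0.65, SE 0.45, edgeR adjusted p = 0.431), and without 5-HT treated replicate 2 its log2 value was -0.09. The median of the 6 genes, 0.11, depended on single libraries: it was -0.17 without 5-HT treated replicate 2, and 0.23, 0.06 and 0.04 without untreated replicates 1, 2 and 3.

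Immunoglobulin RNA differed between the treated libraries and is given beside these genes as a rough reading of plasma cell RNA. The part of it that came from B cells was not tested. Reads of 393 immunoglobulin genes made up 0.103%, 0.122% and 0.129% of the counts without treatment and 0.317%, 0.745% and 0.174% with treatment. Replicate 2 was the richest and replicate 3 the poorest of the treated libraries, although replicate 3 still lay above every untreated one. In replicate 3 the IgG genes stood further above the untreated libraries than this total did: Ighg2c had 62.7 FPKM against 8.13 to 14.1 untreated, Ighg2b 37.7 against 8.21 to 11.2, and Ighg3 11.9 against 0.15 to 0.79. Of 19 listed plasma cell markers, 18 were tested, and 4 rose (Sdc1, Ighg2b, Ighg2c and Ighg3) with 0 lower, against 4.55% and 3.19% of all genes. Ighg3 passed in all 14 alternatives that include it, while Sdc1 lost its call in 9 of 15, without any 1 of the 6 libraries among them (adjusted p from 0.0584 to 0.155). Ighg2b lost its call in 5 of 14, among them without untreated replicate 1 (0.12029), 2 (0.0709) or 3 (0.139), and Ighg2c in 2 of 14, without untreated replicate 1 (0.0843) or 3 (0.0848). Ighm, Igkc, Igha, Ighg1, Mzb1, Prdm1, Jchain and Iglc2 did not pass in the main edgeR fit but did in 1 to 4 alternatives each. Immunoglobulin genes are multigene families, so single ones are uncertain. Ighm and Igkc, the most abundant markers, had 192, 164 and 196 and 357, 388 and 483 FPKM untreated, and 545, 1181 and 240.0 and 1215, 2809 and 641 FPKM treated. Jchain, the joining chain of secreted antibody, had 33.4, 47.4 and 88.0 FPKM untreated and 119.6, 257 and 68.3 treated, so that treated replicate 3 lay within the untreated range. Mzb1, a chaperone-like ER protein of plasma and B cells, had 0.82 to 1.13 FPKM untreated and 2.42, 5.03 and 1.40 treated. The summed FPKM of the 9 plasma cell markers that are not immunoglobulin genes was 59.0 to 117 untreated and 92.4 to 309 treated. Jchain, the joining chain of antibody, made up most of that sum in every library. No marker of the list was at 0 in any library. Of the 19 listed markers, 10 had treated libraries above all untreated ones (15.4% of all genes tested). Among these, Prdm1 had 2.36, 3.95 and 2.19 FPKM untreated and 4.67, 5.58 and 4.46 treated. It did not pass (log2 0.80, edgeR adjusted p = 0.0742). Tnfrsf17, also among them, was not tested and had 0.2 to 0.4 FPKM untreated and 0.43 to 0.8 treated. Irf4, Pou2af1, Tent5c and Eaf2 were among those with overlapping groups (log2 -0.12, 0.24, 0.28 and 0.02). Summed B cell markers overlapped between groups, at 52.3 to 87.7 FPKM untreated and 46.3, 110.4 and 20.6 in treated replicates 1, 2 and 3. Their order over the treated libraries was that of immunoglobulin RNA.

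Treated replicate 2 was the highest treated library for 7 of 11 chaperones and 22 of all 36 genes, and replicate 3 for 4 and 13. The full order of immunoglobulin RNA in the treated libraries, with replicate 2 above 1 and 1 above 3, was shared by 12 of the 36 genes: 2 of 11 chaperones (Dnajb9 and Sdf2l1), 3 of 8 folding and translocation genes, 3 of 4 sensors (Xbp1, Atf6 and Eif2ak3), 2 of 7 degradation factors and 2 of 6 ATF4 branch genes. The 4 chaperones highest in replicate 3 were Hspa5, Calr, Canx and Dnajc3. That library had the least immunoglobulin RNA of the treated ones, at 0.174% of counts, still above the untreated 0.103% to 0.129%. There Hspa5 was 2.07 times and Pdia6 2.05 times the untreated mean. Over the 11 chaperones this ratio ran from 0.967 (Dnajb9) to 2.09 (Hsp90b1), and it was 1.38 for Xbp1 and 1.33 for Pdia4. The part of plasma cell RNA in these values was not tested. Treated replicate 3 lay above all untreated libraries for 10 of 11 chaperones, as did replicate 1, and replicate 2 did so for 11 of 11. Shares over all genes were not counted for these orders and positions, so the counts describe the 36 genes only. Without 5-HT treated replicate 2, the same 14 of the 36 genes were called (3.91% of all genes higher and 2.86% lower), with Hspa5 at log2 0.99 (edgeR adjusted p = 0.00418) and Herpud1 at log2 -1.15 (0.00282). With all immunoglobulin genes removed before scaling, the same 14 were called again (4.55% and 3.27% of all genes).

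Derl3 and Asns stood furthest apart in treated replicate 2. Derl3, a degradation channel gene that is high in secretory cells, had 0.72, 0.69 and 0.50 FPKM untreated and 1.13, 3.65 and 0.76 treated, from 19 to 112 counts per library (log2 1.54, SE 0.59, edgeR adjusted p = 0.165). Treated replicate 2 had 3.86 times the mean of the other treated libraries for Derl3 and 3.03 times for Asns. For the other 34 genes this ratio ran from 0.778 to 1.66, with a median of 1.07. Without that library the log2 value of Derl3 was 0.58 (edgeR adjusted p = 0.381). Summed neutrophil markers were highest in the same library, with an FPKM over 10 markers of 142 to 173 untreated and 348 to 913 treated. S100a8 had 113, 227 and 81.9 FPKM in treated replicates 1 to 3 and 25.8 to 36.8 untreated. Camp, Ngp and Ltf differed: their highest values were in untreated libraries, at 1.45, 6.51 and 1.59 FPKM. In treated replicate 2 they had 0.6, 4.79 and 1.53 FPKM. The part of plasma cell or neutrophil RNA in the values of Derl3 and Asns was not tested.

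**Figure D3:**
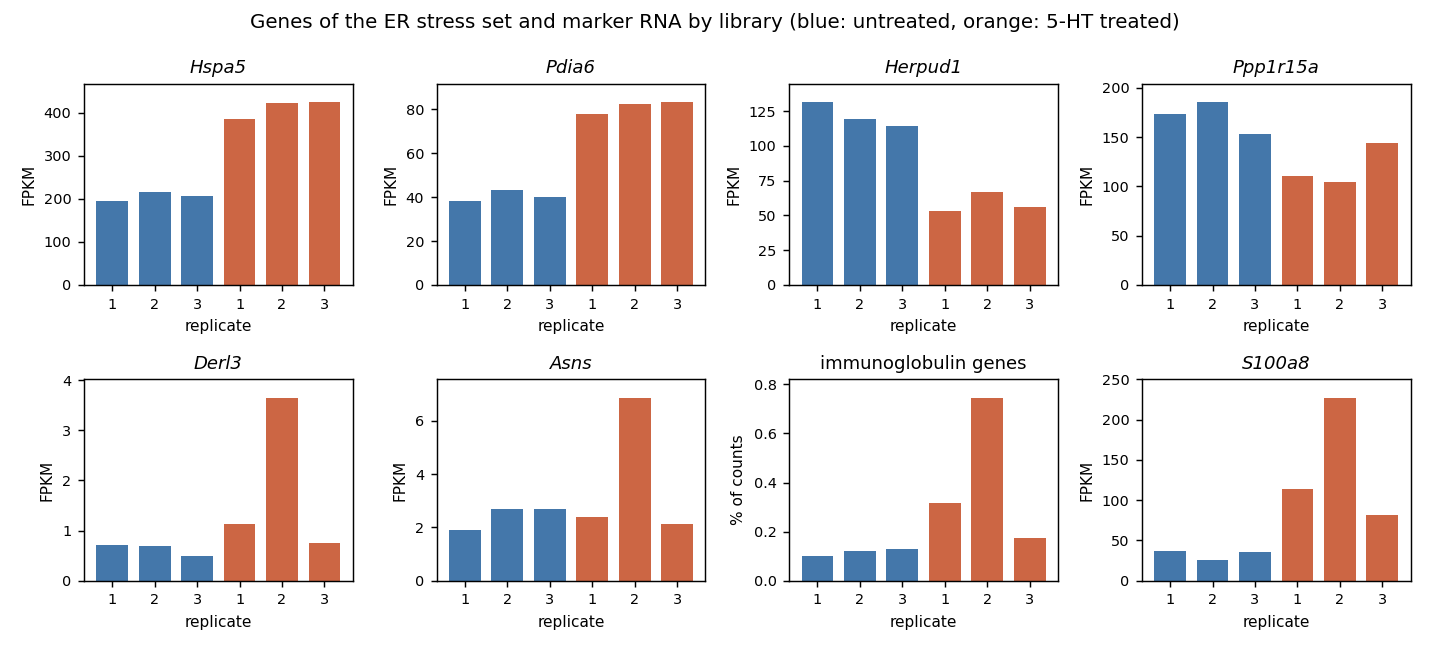
FPKM of 6 genes of the set and of the neutrophil marker S100a8, and the percentage of counts from immunoglobulin genes, in each library; blue bars are untreated and orange bars 5-HT treated replicates 1 to 3. Hspa5 and Pdia6 are level across the treated libraries and Herpud1 is low in all 3, while Derl3 and Asns have their peak in treated replicate 2, as immunoglobulin RNA (0.745%) and S100a8 (227 FPKM) do.

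Beyond the 36, a wider list of 130 genes of ER folding, glycosylation, translocation, degradation, sensing and ATF4 targets was examined, of which 129 were tested. Over the whole list 10 rose (7.75%, against 4.55% of all genes), 5 fell (3.88%, against 3.19%) and 114 did not pass, with a median log2 change of 0.08. DESeq2 called 15 higher and 7 lower (7.46% and 6.12% of all genes), and the fit blocked on replicate number 3 and 3 (2.33% each, against 3.26% and 2.13% of all genes). Leaving out an untreated library gave 1 and 1 (replicate 1), 4 and 4 (replicate 2) and 1 and 1 (replicate 3). Over all genes these fits called 1.28% and 0.652%, 668 and 675 genes, and 1.29% and 0.68%. Leaving out a treated library gave 2 and 1 (replicate 1), 5 and 4 (replicate 2) and 4 and 7 (replicate 3). Over all genes these called 338 and 222 genes, 3.91% and 2.86%, and 663 and 493 genes. The main fit called 757 and 531 genes, so calls over all genes also fell without untreated replicate 1 or 3. Of 26 further folding factors, 3 rose and 1 fell. Ero1a, the oxidase paralogous to Ero1b and also known as a hypoxia target, went from 10.3, 10.9 and 11.2 to 23.2, 19.95 and 21.2 FPKM (log2 1.00, SE 0.09, edgeR adjusted p = 0.00169), with treated libraries far above the untreated ones. Fkbp14, a prolyl isomerase, and Tmx1, a membrane-bound disulfide isomerase, rose with log2 changes of 0.70 and 0.40, and Qsox1, a sulfhydryl oxidase of the Golgi and secreted space, fell with one of -0.52. Of 15 glycosylation genes and 26 further degradation genes 0 passed by edgeR, with medians of 0.12 and 0.09. At an unadjusted p under 0.05, 3 of the glycosylation genes were higher and 1 lower, and 2 of the degradation genes were higher. At least 3983 of the 16641 genes tested were under this cut, in either direction. DESeq2 called 2 of the glycosylation genes higher and 1 lower, and 1 of the degradation genes higher. Of 15 translocation genes, 3 rose: Spcs3 and Sec11a, both of the signal peptidase, and Srpr, a receptor subunit of the signal recognition particle (log2 0.58, 0.36 and 0.34). Of 16 other sensors and transcription factors, Creb3l2, an Atf6-like membrane-bound factor, rose (log2 0.66).

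The wider ATF4 targets went in both directions. Of 31 tested, 3 rose and 4 fell, with a median of -0.04. Slc7a5, the light chain of a transporter of large neutral amino acids, went from 53.0, 46.4 and 47.0 FPKM to 16.5, 19.3 and 21.4 (log2 -1.35, SE 0.13, edgeR adjusted p = 0.00187), with no overlap between groups. Gdf15, a secreted stress cytokine, fell from 4.22 ± 1.57 to 1.103 ± 0.0902 FPKM (log2 -1.93, edgeR adjusted p = 0.0137), and Gpt2, a mitochondrial alanine aminotransferase, had a log2 change of -0.60. Slc7a1, a transporter of arginine and lysine, rose with a log2 change of 0.74. Among the named genes of the wider list, Ero1a and Slc7a5 kept their calls in all 15 alternatives. The 10 others each lost theirs without untreated replicate 1 (adjusted p from 0.0554 to 0.195) and without untreated replicate 3 (0.0559 to 0.165), and in 3 to 10 of the 15 alternatives in all.

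**Figure D4:**
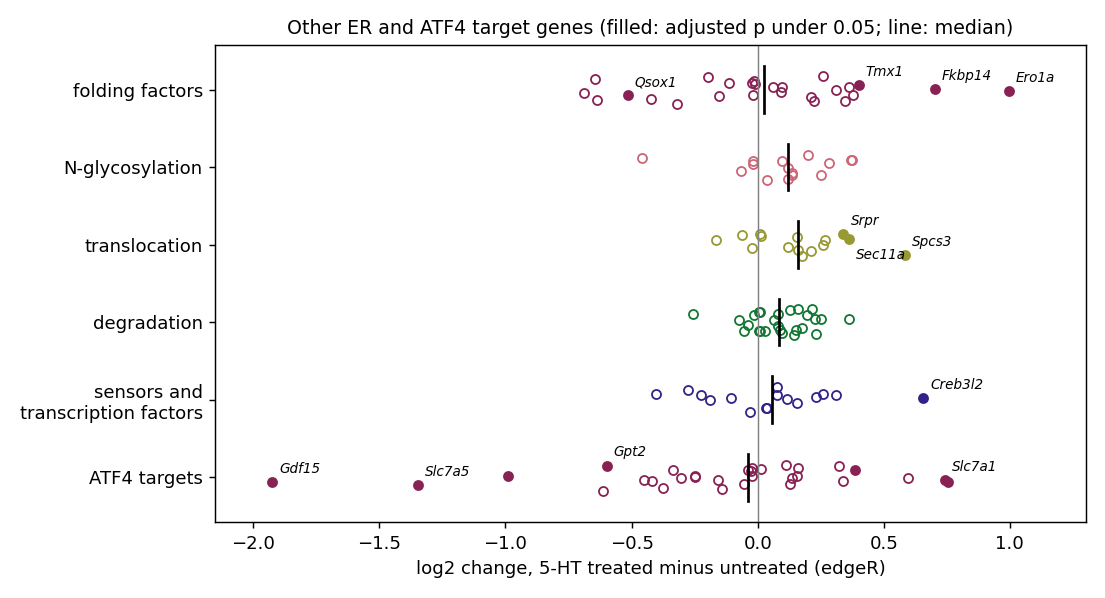
Log2 change, 5-HT treated minus untreated, of the 129 tested genes of the wider list by role; each point is a gene, filled points have an edgeR adjusted p under 0.05, lines are medians, and the genes named in the text are labelled. Medians lie between -0.04 for ATF4 targets and 0.16 for translocation, and filled points lie on both sides of 0 for folding factors and ATF4 targets.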

How the data were processed

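Messenger RNA of 6 libraries was sequenced on a NovaSeq system, per the labels' protocols. The deposited table gives raw read counts per gene and FPKM, per the file headers; HISAT2 2.2.1, featureCounts 2.0.1 and mm10 are named in the submitters' processing notes without their roles. The deposited FPKM values of at least 1 all lay within 0.5% or rounding of those recomputed from count, exonic length and column total. Deposited start and end equalled those of GENCODE M21 for 2 of the 36 genes, so positions are those of GENCODE M21 (GRCm38), by identifier. Counts were tested with edgeR 4.0.16 in R 4.3.3 (filterByExpr, TMM, quasi-likelihood test, two-sided, Benjamini-Hochberg over the 16641 genes tested, threshold 0.05), without covariates. Standard errors are the log2 change over the square root of F. The fit was tested on simulated data. Alternatives were DESeq2 1.42.0, limma 3.58.1 on log2(FPKM + 1) and log2(FPKM + 0.1), other filters and scalings, a block for replicate number, and fits without 1 library at a time. Replicates of a group differed beyond counting error (chi-square over its degrees of freedom of at least 6.78), and all were kept. All 36 genes, the called genes of smallest p in each role of a wider list (up to 4) and marker genes are named; these lists were chosen with earlier results of these data known.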

Additional observations from a re-analysis of the deposited data

How the results depend on the processing

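Of the 14 called genes among the 36, 8 kept direction and call in all 15 alternatives. Fits without 1 library gave 7 to 14 of the 36 higher and 1 to 2 lower, and 218 to 672 genes higher and 111 to 675 lower over all genes tested. DESeq2 called 1241 genes higher and 1018 lower, and 2 of the 36 lower. The median log2 change of the sensors with Xbp1 was 0.43 to 0.55 without 1 library, and that of the ATF4 branch -0.17 to 0.23. Signs reversed for 8 genes that had not passed when 1 library was left out: log2 values ran from -0.0022 to 0.12 for Dnajb9, -0.088 to 0.93 for Asns, -0.24 to 0.27 for Chac1, and, among plasma cell markers, -0.45 to 0.19 for Irf4, -0.74 to 0.65 for Pou2af1, -0.23 to 0.18 for Eaf2, -0.29 to 0.91 for Iglc1 and -0.39 to 0.97 for Iglc3. With limma Pou2af1 was at -0.035 and -0.0803 (pseudocounts of 1 and 0.1) and Eaf2 at -0.00125 (0.1).

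Whether equal replicate numbers mark paired libraries is not given by the labels and cannot be settled with 3 libraries per group. Deviations from the group means correlated at 0.075, 0.073 and -0.011 for replicates 1, 2 and 3. Treated replicates 1 and 2 correlated best with their own number, and treated replicate 3 with untreated replicate 1 (0.092). The replicate block gave 13 of the 36 higher and 1 lower, without Canx (adjusted p = 0.0592) and with Pdia4 (0.0475), and 542 genes higher and 354 lower over all genes; Pou2af1 was at -0.073 there. The causes of these differences were not tested. Low counts limit Chac1 (24 to 46 a library) and Derl3 (19 to 112).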
